A study of Solanum lycopersicum with 120 samples.

Results

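The 6 libraries described here hold RNA from cotyledons of *slpif8a* tomato (*Solanum lycopersicum*) seedlings, 3 from seedlings kept in white light (24WL) and 3 from seedlings given white light with added far-red (24FR) for 6 h. They were taken by sample name from the 120 libraries of the series. The comparison asks how transcript levels in these cotyledons changed under a low ratio of red to far-red light (R/FR). The *slpif8a* plants carried 1 CRISPR-Cas9 allele (*slpif8a* CR-1) of the transcription factor gene *SlPIF8a* in the M82 (*sp*) background, so that a single allele stands for the genotype. Seedlings were 12 days old, were grown in long days at 24 °C, and were moved after 2 h of light to 24FR, which had an R/FR of 0.6, or kept in 24WL. Each of the 3 replicates per light pooled the cotyledons of 4 seedlings. The same lights, organ and time were available in WT (M82) and in the quadruple mutant *slpifq*, in which *SlPIF4*, *SlPIF7a* and *SlPIF7b* are mutated together with *SlPIF8a*, and the first leaf, hypocotyl and epicotyl of *slpif8a* were used for comparison between organs.

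Plants read R/FR through phytochromes, chiefly phytochrome B, which far-red light turns into its inactive form. Active phytochrome B holds back the PHYTOCHROME-INTERACTING FACTORS (PIFs), basic helix-loop-helix (bHLH) transcription factors. When R/FR falls, PIFs bind the promoters of genes for homeodomain leucine zipper (HD-Zip II) proteins, for YUCCA enzymes that make auxin, and for enzymes of gibberellin and brassinosteroid metabolism. In Arabidopsis the cotyledons sense low R/FR, make auxin and export it to the hypocotyl, and shade also lowers the genes that make anthocyanin.

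Between 23528368 and 33835360 reads were counted on genes in each of the 6 libraries. The floor was set at 3 counts, which is 0.103 to 0.152 CPM (counts scaled to library size after TMM normalization), and covers counting error only. Pearson's r between replicates over the 17460 genes tested was 0.9811 to 0.9902 in 24WL and 0.9842 to 0.9905 in 24FR, on log2(CPM + 1). The 7 photosynthesis genes used as defining mesophyll markers stood at 141 to 5795 CPM in every library. In whole cotyledons, fewer cells of a type and less RNA per cell cannot be told apart. Adjusted p-values are by edgeR (quasi-likelihood test), and the Benjamini-Hochberg procedure was applied to all 17460 genes. By the study's methods each biological replicate held 4 seedlings. The p-values rest on the spread between replicates pooled over all 72 libraries of 3 genotypes and 4 organs, not on that of the cotyledon libraries alone. An exact permutation test of 3 against 3 libraries cannot give a p below 0.1, so that no single gene was tested that way.

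*SlPIF8a* transcript was still present in the mutant. *SlPIF8a* (Solyc01g090790) stood at 243, 199 and 186 CPM in 24WL and at 152, 155 and 141 CPM in 24FR in *slpif8a*, and at 309, 315 and 289 CPM and 247, 287 and 213 CPM in the same lights in WT. In either light every *slpif8a* library was below every WT library. The genotype difference was -0.54 ± 0.14 (SE), adjusted p = 0.0578 in 24WL and -0.74 ± 0.14 (SE), adjusted p = 0.000959 in 24FR on the log2 scale, and only the second passed the threshold on the adjusted p, without reaching a 2-fold change. A small edit in a gene need not remove its transcript, and reads over the edited site were not analysed here.

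Of 17460 genes tested, 373 were called in *slpif8a* cotyledons (2.14%), 263 upregulated (1.51%) and 110 downregulated (0.63%) in 24FR, at an adjusted p under 0.05 and an absolute log2 fold change above 1. The replicates of both lights did not overlap in 356 of the called genes, 251 upregulated and 105 downregulated, while 22.7% of all tested genes had replicates that did not overlap. The median log2 fold change was 1.63 among the upregulated and -1.42 among the downregulated genes, and -0.0048 over all genes tested. Fitted to the 18 cotyledon libraries alone, the same contrast called 213 genes, 150 upregulated and 63 downregulated, of which 212 were among the 373. The common dispersion, a measure of the spread between replicates, was 0.0327 in that fit and 0.0193 in the fit to the 72 libraries. Without 24FR replicate 2, 442 genes were called, 253 upregulated and 189 downregulated.

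The upregulated genes with the largest values were close to silent in 24WL. An uncharacterized plant-specific protein gene (Solyc04g010285) stood at 0.202, 0.172 and 0.137 CPM in 24WL and at 81.8, 76.5 and 45.8 CPM in 24FR (log2 fold change 8.61 ± 0.42 (SE), adjusted p = 1.28e-22). A relative of it with the same description (Solyc05g054750) stood at 1.67, 1.65 and 1.97 CPM in 24WL and at 62.7, 64.6 and 67.9 CPM in 24FR (log2 fold change 5.21 ± 0.19 (SE), adjusted p = 1.38e-27). The change in Solyc05g054750 was almost the same in WT, at 5.22. *FLOWERING-PROMOTING FACTOR 1* (Solyc01g066980), named for an Arabidopsis gene that promotes flowering, had 3 counts over the 3 24WL libraries and 1002 over the 3 24FR libraries, a ratio of 351 with a 95% counting interval of 120 to 1705. *branched1b* (Solyc06g069240), of the family of TCP factors that hold back side shoots, had no count in 24WL and stood at 0.683, 0.961 and 0.431 CPM in 24FR, at least 16.3-fold higher when 3 counts over the group are taken as the 24WL floor.

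Other genes of this kind were transcription factor genes. *bHLH136* (Solyc06g062460) stood at 0.606, 0.241 and 0.229 CPM in 24WL and at 29.8, 22 and 20.5 CPM in 24FR (log2 fold change 6.11 ± 0.55 (SE), adjusted p = 2.4e-12), with 8.93 in WT. A *myb-related protein Hv1* gene (Solyc05g008240) rose from 0.101, 0.103 and 0 CPM to 7.74, 8.14 and 7.25 CPM (log2 fold change 6.68 ± 0.58 (SE), adjusted p = 3.73e-11). Among the 10 largest increases of called genes with replicates that did not overlap, Solyc11g051123 and Solyc02g066970 have no informative description, and their values were 5.12 and 4.85. The lowest p-values among the upregulated genes belonged to Solyc05g054750 and to a protein kinase gene (Solyc01g080880), which stood at 63.7, 60.2 and 56.4 CPM in 24WL and at 188, 167 and 181 CPM in 24FR (log2 fold change 1.57 ± 0.059 (SE), adjusted p = 1.38e-27). A gene for a DUF642 cell wall protein (Solyc01g087540) rose from 33.2, 29 and 38.7 CPM to 107, 112 and 105 CPM (log2 fold change 1.68 ± 0.097 (SE), adjusted p = 1.71e-19). In each of these genes the 24FR libraries lay above the 24WL libraries without overlap.

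Among the downregulated genes, an *organic cation/carnitine transporter 4* gene (Solyc07g063930) fell from 9.80, 12.8 and 11.4 CPM in 24WL to 1.27, 1.11 and 1.96 CPM in 24FR (log2 fold change -2.95 ± 0.32 (SE), adjusted p = 3.7e-10). A pair of *RADIALIS-like 6* genes, which encode small single-repeat MYB proteins, fell. Solyc01g109690 went from 27, 24.1 and 24.1 CPM to 4.41, 5.87 and 4.39 CPM (log2 fold change -2.36 ± 0.32 (SE), adjusted p = 1.32e-07), and Solyc10g052470 from 6.56, 7.27 and 7.06 CPM to 1.55, 1.82 and 0.94 CPM (log2 fold change -2.29 ± 0.33 (SE), adjusted p = 6.67e-07). The lowest p-values belonged to a *cytochrome b5* gene (Solyc04g078140), at 44.6, 46.3 and 37.6 CPM in 24WL and 14.2, 12.7 and 8.62 CPM in 24FR (log2 fold change -1.86 ± 0.16 (SE), adjusted p = 2.38e-13), and to an aldehyde dehydrogenase gene (Solyc06g071290), at 70.2, 59.2 and 70.3 CPM and 34.2, 27.1 and 30.3 CPM (log2 fold change -1.12 ± 0.094 (SE), adjusted p = 2.11e-13). Groups did not overlap in any of these 5 genes. Another 3 genes among the largest fitted decreases rested on few counts. *bHLH019* (Solyc03g006910) had 36 counts over the 24WL libraries and 3 over the 24FR libraries, a ratio of 11.4 with a counting interval of 3.61 to 58. *LIGHT-DEPENDENT SHORT HYPOCOTYLS 5* (Solyc05g055020) had 11 and 1, a ratio of 10.5 with an interval of 1.52 to 451, and Solyc06g008930, with no description, stood at 1.21, 0.93 and 0.779 CPM in 24WL and 0.0455, 0.455 and 0.0784 CPM in 24FR. Each of these 3 calls was lost without 1 library or under another test.

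To describe the response by function, members were taken from lists of hormone, light signalling, wall and pigment genes. Gene descriptions came only from the study's tables of genes that it had picked from these libraries, so that their counts are not independent evidence of a direction. Over all tested genes the share called was 1.51% upward and 0.63% downward, and the median change was -0.0048.

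**Figure D1:**
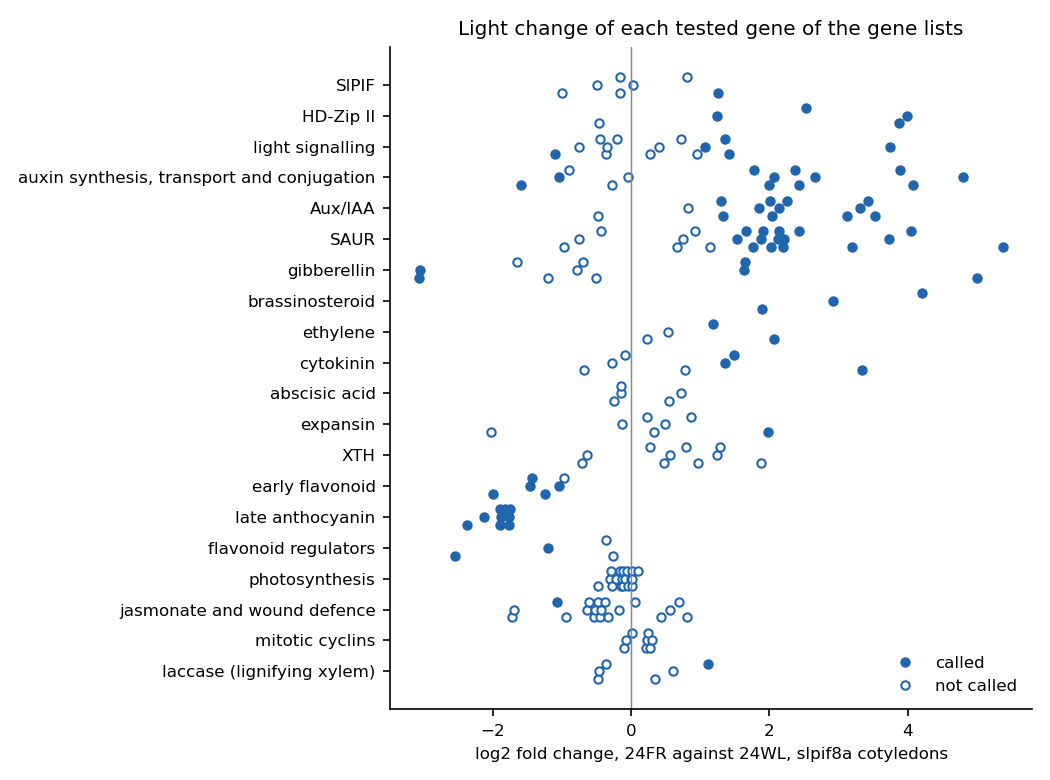
Light response (log2 fold change, 24FR over 24WL) of each tested list gene in *slpif8a* cotyledons, 1 point per gene, filled where called. All 9 late anthocyanin genes lie below 0, the 3 brassinosteroid genes and 11 of 13 Aux/IAA genes are called above 0, and the 18 photosynthesis genes lie around 0.

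Most *HD-Zip II* genes rose. Of 5 tested *HD-Zip II* genes, which encode transcription factors induced by shade, 4 rose and 0 fell, with a median of 2.53. *SlATHB2* (Solyc08g078300), a relative of the Arabidopsis shade marker *ATHB2*, stood at 2.58, 3.58 and 2.79 CPM in 24WL and 55.9, 43.8 and 33.6 CPM in 24FR (log2 fold change 3.88 ± 0.28 (SE), adjusted p = 1.42e-15). *HAT2* (Solyc06g060830) stood at 18.3, 7.34 and 7.33 CPM in 24WL and 204, 160.1 and 151 CPM in 24FR (log2 fold change 3.98 ± 0.33 (SE), adjusted p = 2.11e-13). The remaining members called were Solyc01g090460 at 2.53 and *HOX27* (Solyc01g073910) at 1.24, and the groups did not overlap in any of the 4. *HOX3* (Solyc05g008050) was under the filter, with 3 counts over the 24WL libraries and 40 over the 24FR libraries, a ratio of 14.0 with a counting interval of 4.46 to 70.8. *HAT4-like* (Solyc08g007270) had a value of -0.47 and did not pass the test.

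The list of light signalling genes held 14 genes, of which 4 rose and 1 fell (median 0.34). The phytochrome genes *PHYB1* and *PHYB2* were among those that rose. *PHYB2* (Solyc05g053410) stood at 7.17, 5.48 and 4.72 CPM in 24WL and at 86.5, 76.4 and 69.3 CPM in 24FR (log2 fold change 3.75 ± 0.19 (SE), adjusted p = 7.75e-22), and *PHYB1* (Solyc01g059870) at 78.4, 67.7 and 59.5 CPM and 198, 187 and 164 CPM (log2 fold change 1.42 ± 0.13 (SE), adjusted p = 2.81e-12). Both genes separated fully between the lights, with the larger fold change in *PHYB2*. Of the flowering regulators, *CONSTANS 1* (Solyc02g089540) rose by 1.36 on the log2 scale (adjusted p = 0.00516), and of 2 relatives of the phytochrome substrate PKS, *PHYTOCHROME KINASE SUBSTRATE 3-like* (Solyc03g116160) rose by 1.07 (adjusted p = 0.0318), with replicates that overlapped. The only member that fell, the B-box gene *BBX24* (Solyc04g081020), stood at 3.89, 3.10 and 2.11 CPM in 24WL and 1.27, 1.11 and 1.80 CPM in 24FR (-1.10, adjusted p = 0.0301), and this call was lost without any one of 4 libraries, 24WL replicates 1 and 2 and 24FR replicates 1 and 2, with values of -0.89 to -1.08.

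Genes for auxin synthesis, transport and conjugation responded in most members. Of 14 tested, 9 rose and 2 fell, with a median of 2.03. The flavin monooxygenase gene Solyc06g083700, matched in the study's table to an Arabidopsis *YUCCA* gene of auxin synthesis, stood at 1.82, 0.482 and 1.47 CPM in 24WL and 22.2, 19.98 and 19.9 CPM in 24FR (log2 fold change 4.08 ± 0.50 (SE), adjusted p = 1.11e-08). *YUC5* (Solyc09g064160) stood at 0.202, 0.31 and 0.229 CPM and 1.05, 1.31 and 2.47 CPM (log2 fold change 2.67 ± 0.47 (SE), adjusted p = 2.92e-05). Both synthesis genes were low in white light in every library and separated fully between the lights.

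Transport genes moved with them. *SlPIN3* (Solyc04g007690), which encodes an auxin efflux carrier, stood at 7.22, 9.33 and 7.06 CPM in 24WL and 51.4, 37.8 and 33.9 CPM in 24FR (log2 fold change 2.38 ± 0.25 (SE), adjusted p = 1.41e-10). *SlPIN1* (Solyc03g118740), another carrier, stood at 14.4, 9.40 and 5.68 CPM and 31.7, 36.7 and 32.4 CPM (log2 fold change 1.78 ± 0.18 (SE), adjusted p = 5.43e-11). The kinase gene *WAG2* (Solyc07g056400), whose Arabidopsis relative phosphorylates PIN proteins, rose by 2.42, and a *BIG GRAIN 1-like* gene (Solyc08g062180) by 2.06. GH3 enzymes join auxin to amino acids and so lower its free level, and their genes moved in both directions. Solyc12g005310 stood at 3.48, 1.83 and 0.504 CPM in 24WL and 56.9, 68.9 and 33.5 CPM in 24FR (log2 fold change 4.80 ± 0.54 (SE), adjusted p = 1.24e-09), and the relatives Solyc02g092820 and Solyc07g063850 rose by 3.89 and 1.996. By contrast, Solyc07g054580 fell from 18.1, 10.9 and 11.4 CPM to 4.51, 3.89 and 4.90 CPM (log2 fold change -1.59 ± 0.24 (SE), adjusted p = 1.6e-06), and Solyc08g068490 by a log2 value of -1.05 (adjusted p = 0.00654).

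*Aux/IAA* genes encode repressors that are degraded when auxin is bound and that are themselves induced by auxin. Of 13 tested, 11 rose and 0 fell, with a median of 2.04. *IAA17* (Solyc06g008590) stood at 4.39, 3.20 and 2.98 CPM in 24WL and at 41.5, 35.8 and 35.2 CPM in 24FR (log2 fold change 3.42 ± 0.22 (SE), adjusted p = 1.48e-17). Its neighbour by identifier, *IAA22* (Solyc06g008580), stood at 1.01, 0.689 and 1.19 CPM and 14.3, 10.3 and 8.19 CPM (log2 fold change 3.52 ± 0.38 (SE), adjusted p = 3.9e-10), and *IAA29* (Solyc08g021820), whose Arabidopsis namesake is a known shade-induced gene, at 4.54, 4.86 and 4.44 CPM and 38.3, 32 and 50.1 CPM (log2 fold change 3.12 ± 0.35 (SE), adjusted p = 1.33e-09). No 24WL library reached 5 CPM in these 3 genes, and every 24FR library lay above the 24WL libraries. Of the others called, the largest value was that of *IAA2* (Solyc06g084070) at 3.31 and the smallest that of *IAA4* (Solyc06g053840) at 1.30. The 2 members that were not called were *auxin-regulated 35* (Solyc07g008020) at 0.82 (adjusted p = 0.0183) and *IAA27* (Solyc03g120500) at -0.48 (adjusted p = 0.183).

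*SAUR* genes are early auxin response genes that promote cell expansion. Of 29 listed, 22 passed the filter, 15 rose and 0 fell (median 1.89). Most lie together: 18 of the 29 have identifiers from Solyc01g110570 to Solyc01g111000 on chromosome 1, 15 of them were tested and 11 rose. Near-identical neighbours can share reads, and the split of counts between them is uncertain. *SAUR9* (Solyc01g110630) stood at 0.151, 0.0689 and 0.137 CPM in 24WL and at 2.78, 1.62 and 0.392 CPM in 24FR (log2 fold change 3.74 ± 0.72 (SE), adjusted p = 0.000144), *SAUR11* (Solyc01g110770) at 0.606, 0.0689 and 0.0458 CPM and 4.69, 3.74 and 2.63 CPM (log2 fold change 4.05 ± 0.64 (SE), adjusted p = 4.14e-06). A *SAUR20* copy (Solyc01g110790) had 2 counts over the 24WL libraries and 90 over the 24FR libraries, a ratio of 47.3 with a counting interval of 12.7 to 396. Away from the cluster, *SAUR65* (Solyc11g011630) rose by 3.19 (adjusted p = 0.000653), while *SAUR1* (Solyc01g091030) and *SAUR2* (Solyc01g096340) had values of -0.75 and -0.44 and were not called. Only 3 of the 8 *SAUR* genes that passed the filter among the cotyledon libraries alone were called in that fit.

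Gibberellin genes changed in both directions. Of 10 tested, 3 rose and 2 fell. *GA20ox2* (Solyc06g035530), whose enzyme makes the precursors of active gibberellin, stood at 0.454, 0.551 and 0.458 CPM in 24WL and 15.2, 17.1 and 15.5 CPM in 24FR (log2 fold change 5.002 ± 0.31 (SE), adjusted p = 2.78e-18). *GA20ox1* (Solyc03g006880), of the same step, stood at 6.97, 3.31 and 4.08 CPM and 16.5, 14.6 and 13.2 CPM (log2 fold change 1.64 ± 0.32 (SE), adjusted p = 0.000179). Of the genes for gibberellin 2-oxidases, which inactivate the hormone, a *GA2ox8* gene (Solyc02g080120) fell from 67.2, 99.3 and 88.6 CPM to 7.78, 6.73 and 15.9 CPM (log2 fold change -3.05 ± 0.46 (SE), adjusted p = 1.7e-06). Solyc10g007570, described as gibberellin 2-oxidase, fell from 5.91, 8.13 and 8.02 CPM to 0.774, 0.607 and 1.21 CPM (log2 fold change -3.06 ± 0.40 (SE), adjusted p = 7.4e-08). Another member of that class, *GA2ox2* (Solyc07g056670), went the other way, from 4.75, 5.10 and 4.44 CPM to 11.4, 11.5 and 21.2 CPM (log2 fold change 1.63 ± 0.34 (SE), adjusted p = 0.000549). None of these 5 genes overlapped between the lights. A gibberellin receptor gene (Solyc06g008870) stood at -0.79 (adjusted p = 0.000265), under a 2-fold change.

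All 3 brassinosteroid genes rose (median 2.91). *DWARF* (Solyc02g089160), whose enzyme completes the synthesis of castasterone, stood at 2.22, 2.96 and 1.79 CPM in 24WL and 20.2, 14.7 and 18.1 CPM in 24FR (log2 fold change 2.91 ± 0.31 (SE), adjusted p = 3.89e-10). Solyc12g006860, matched in the study's table to Arabidopsis *BAS1*, which inactivates brassinosteroids, stood at 1.06, 1.03 and 0.962 CPM and 28.2, 16.1 and 12.6 CPM (log2 fold change 4.21 ± 0.47 (SE), adjusted p = 9.6e-10). The gene of a BES1/BZR1 factor (Solyc07g062260), the class that carries the hormone's signal to promoters, stood at 5.71, 5.99 and 9.21 CPM and 17.8, 28.8 and 30.8 CPM (log2 fold change 1.89 ± 0.22 (SE), adjusted p = 3.27e-09). A gene of synthesis, a gene of inactivation and a gene of signalling thus stood higher in every 24FR library than in any 24WL library.

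Genes of ethylene and cytokinin were called too, and none of abscisic acid. The ethylene receptor gene *ETR4* (Solyc06g053710) rose by a log2 value of 1.18. The ethylene synthesis gene *ACS3* (Solyc02g091990), for a synthase of its precursor, was under the filter, with 2 counts over the 24WL libraries and 227 over the 24FR libraries, a ratio of 119 with a counting interval of 32.6 to 991. Of 7 cytokinin genes 3 rose. *CKX4* (Solyc04g080820), for an oxidase that degrades cytokinin, stood at 2.68, 4.65 and 11.7 CPM in 24WL and 61.7, 56.2 and 74.9 CPM in 24FR (log2 fold change 3.34 ± 0.61 (SE), adjusted p = 5.84e-05), *CKX1* (Solyc04g016430) rose by 1.36, and a *LOG*-type gene of cytokinin activation (Solyc09g007830) by 1.49. Genes of degradation and of activation thus rose together. Of 5 tested abscisic acid genes edgeR and DESeq2 called 0, and 1 had an unadjusted p under 0.05 (median -0.14).

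Wall genes gave few calls in *slpif8a* cotyledons. Expansins loosen the wall, and of 7 tested genes 1 rose. *Expansin A11* (Solyc04g081870) stood at 31.3, 29.2 and 24.8 CPM in 24WL and 164, 94.8 and 78.3 CPM in 24FR (log2 fold change 1.99 ± 0.25 (SE), adjusted p = 2.67e-08), and *expansin 5* (Solyc02g088100) at 66.5, 54.6 and 64 CPM and 113, 112 and 114 CPM, a change of 0.87 (adjusted p = 0.00186) that was short of 2-fold. Of 10 tested *XTH* genes, whose enzymes cut and rejoin xyloglucan, edgeR and DESeq2 called 0, while 6 had an unadjusted p under 0.05, 4 higher and 2 lower in 24FR (median 0.68). The largest value was that of *XTH9* (Solyc12g011030), at 0.858, 1.07 and 3.07 CPM in 24WL and 2.50, 6.52 and 9.17 CPM in 24FR (log2 fold change 1.87 ± 0.67 (SE), adjusted p = 0.0553). It would be called without 24WL replicate 3, where it was highest of that light, at 2.64, or without 24FR replicate 1, at 2.24.

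The genes that fell together were those of flavonoid and anthocyanin synthesis. Of 6 early flavonoid genes 5 fell and 0 rose (median -1.33), and of 9 late anthocyanin genes 9 fell (median -1.88). *Chalcone synthase 1* (Solyc09g091510), the entry to the pathway, stood at 82.4, 83.7 and 70.5 CPM in 24WL and 23.5, 23.1 and 12.9 CPM in 24FR (log2 fold change -1.997 ± 0.18 (SE), adjusted p = 3.62e-12), and *chalcone synthase 2* (Solyc05g053550) at 205, 204 and 181 CPM and 90.2, 77.1 and 47.7 CPM (log2 fold change -1.46 ± 0.16 (SE), adjusted p = 8.06e-10). Both chalcone isomerase genes fell, Solyc05g010320 by a log2 value of -1.24 and Solyc05g052240 by -1.04, and so did Solyc02g083860, matched to Arabidopsis flavanone 3-hydroxylase (-1.43). The *phenylalanine ammonia-lyase* gene (Solyc09g007910), which feeds phenylpropanoids of every kind, stood at -0.97 (adjusted p = 0.109) and was not called.

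All late genes, which make and modify the pigment itself, were called. *Dihydroflavonol 4-reductase* (*DFR*, Solyc02g085020) stood at 166, 172 and 168 CPM in 24WL and 55.2, 52.2 and 28.6 CPM in 24FR (log2 fold change -1.90 ± 0.20 (SE), adjusted p = 2.54e-10), which leaves 26.8% of the 24WL mean. Solyc08g080040, matched to Arabidopsis anthocyanidin synthase, stood at 164, 162 and 121 CPM and 51.9, 47.4 and 21.4 CPM (log2 fold change -1.89 ± 0.28 (SE), adjusted p = 9.15e-07), and an acyltransferase gene (Solyc12g088170) at 155, 165 and 142 CPM and 46.7, 38.2 and 20.6 CPM (log2 fold change -2.13 ± 0.23 (SE), adjusted p = 3.72e-10). Levels in 24WL were much alike across replicates, and no gene of the 9 overlapped between the lights. The rest of the late list ran from -2.37 for a glycosyltransferase gene (Solyc10g083440) to -1.75 for another (Solyc12g098590), and held flavonoid 3',5'-hydroxylase (Solyc11g066580, -1.76), a glutathione S-transferase (Solyc02g081340, -1.77) and an anthocyanin permease (Solyc03g025190, -1.88). In all 9 of these genes 24FR replicate 3 was the lowest library.

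Of 4 tested regulators of the pathway, 2 fell. *bHLH150* (Solyc09g065100), matched to Arabidopsis *TT8*, a partner of MYB factors in switching on late genes, stood at 31.8, 32.1 and 34.2 CPM in 24WL and 8.56, 4.80 and 3.41 CPM in 24FR (log2 fold change -2.55 ± 0.27 (SE), adjusted p = 2.45e-10). *R2R3MYB75* (Solyc10g086250), matched to an Arabidopsis anthocyanin MYB, stood at 17, 23.6 and 13.6 CPM and 7.83, 8.90 and 6.90 CPM (log2 fold change -1.21 ± 0.28 (SE), adjusted p = 0.00197), and without 24WL replicate 2 its value was -0.96, short of a 2-fold change. *R2R3MYB28* (Solyc10g086270), at -0.36, and *colorless fruit epidermis* (Solyc01g079620), at -0.26, were not called.

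Of the 7 tested genes of the *SlPIF* family, 1 was called. *SlPIF3* (Solyc01g102300) stood at 4.85, 4.48 and 4.67 CPM in 24WL and 10.1, 10.7 and 12.7 CPM in 24FR (log2 fold change 1.26 ± 0.15 (SE), adjusted p = 4.94e-09). *SlPIF7a* (Solyc03g115540) stood at 27.4, 27.5 and 21.4 CPM and 14.8, 10.7 and 12.8 CPM, a log2 change of -0.996 (adjusted p = 0.00406) at the edge of the 2-fold limit, and it was past the limit with DESeq2, with DESeq2's size factors, in the fit to the cotyledon libraries and without 24WL replicate 3 or 24FR replicate 1, at values down to -1.12. *SlPIF7b* (Solyc06g069600) stood at 4.39, 5.41 and 5.59 CPM and 11.5, 9.41 and 6.07 CPM (log2 fold change 0.81 ± 0.36 (SE), adjusted p = 0.143), and did not pass. *SlPIF8a* itself changed by -0.49 (adjusted p = 0.0118).

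Lists of genes for other cells and states held at most 1 gene called by edgeR. The sum over 18 photosynthesis genes was 27630 to 35323 CPM in 24WL and 30226 to 32703 CPM in 24FR, and edgeR and DESeq2 called 0 of them, none with an unadjusted p under 0.05. The 19 jasmonate and wound genes summed to 588 to 1052 CPM in 24WL and 706 to 945 CPM in 24FR, with 14 of 19 genes lower in 24FR (median -0.44) and 1 called lower by edgeR (2 by DESeq2), a protease inhibitor gene (Solyc09g084460) whose call was lost without any one of 3 libraries, at -0.81 to -0.91. The 8 mitotic cyclins summed to 16.1 to 19.3 CPM and 15.9 to 22.3 CPM, with 0 called by either tool and none at an unadjusted p under 0.05. The 7 laccase genes, markers of lignifying xylem, summed to 23.0 to 51.1 CPM and 23.2 to 43.6 CPM, with 1 called higher (Solyc05g050540, at 0.91 without 24WL replicate 3 and so short of 2-fold). The sums of both lights overlapped in every list, and no list was at 0 in a library.

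WT cotyledons under the same lights gave 484 called genes (2.77%), 251 upregulated (1.44%) and 233 downregulated (1.33%). Of the 263 upregulated in *slpif8a*, 184 were also upregulated in WT, 70% of the *slpif8a* list and 73.3% of the WT list. Of the 110 downregulated, 75 were also downregulated in WT, 68.2% of the *slpif8a* list but 32.2% of the longer WT list. No gene was called in opposite directions. A call in a single genotype does not show a difference: of 114 genes called in *slpif8a* alone, 3 were called for the difference between the genotypes, and of 225 called in WT alone, 4. Across the genes upregulated in *slpif8a* the median log2 fold change in WT was 1.38, and across those downregulated it was -1.42. These 2 comparisons share no library.

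**Figure D2:**
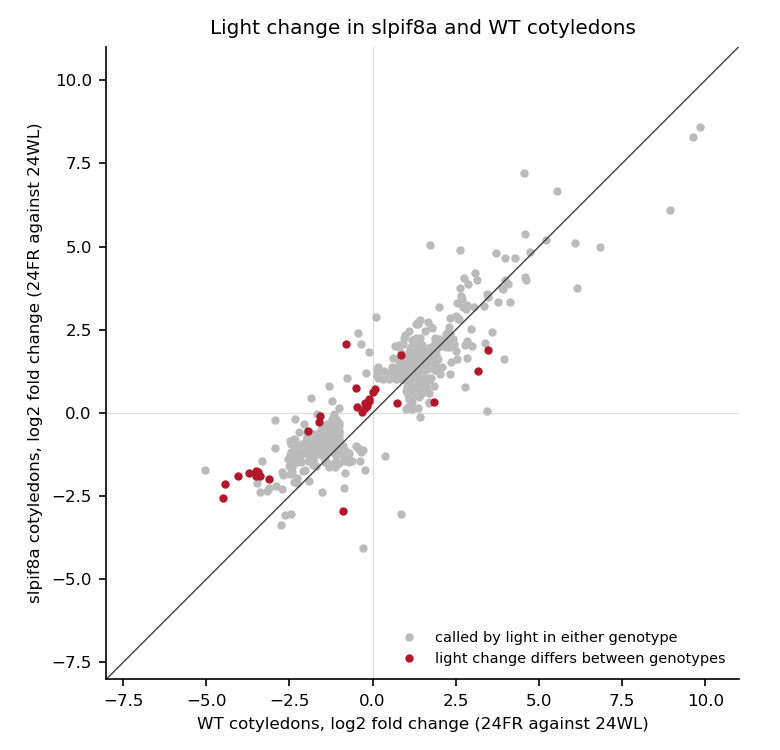
Light response (log2 fold change, 24FR over 24WL) in WT cotyledons (horizontal) and *slpif8a* cotyledons (vertical) for the 610 genes called in either genotype or for the difference between them, with the diagonal of equal change. Points follow the diagonal, and of the 30 genes called for the difference, in red, many lie in the lower left above the diagonal, where the fall in WT was the larger.

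Lists with many calls in *slpif8a* also held calls in WT. In WT 4 of 5 *HD-Zip II*, 8 of 14 auxin, 8 of 13 *Aux/IAA*, 13 of 22 *SAUR* and 3 of 3 brassinosteroid genes rose, and 5 of 6 early and 9 of 9 late pathway genes fell, while 1 auxin and 1 *Aux/IAA* gene were called lower. The median in *slpif8a* and WT was 2.53 and 2.97 for *HD-Zip II*, 2.04 and 1.27 for *Aux/IAA*, and -1.88 and -3.44 for the late pathway, against -0.0048 and -0.02 over all genes.

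The difference between the light responses of the genotypes, tested as an interaction, was called for 30 genes (0.172%), 25 with a higher (0.143%) and 5 with a lower value (0.0286%) in *slpif8a*. This count rests on the spread pooled over 4 organs. In fits to the 18 cotyledon libraries or to the 12 libraries of both genotypes edgeR called 0. In the former the smallest adjusted p was 0.0509, and 547 genes of 14991 had an unadjusted p under 0.05. That is a share below 0.05, so that this fit held no excess of small p-values. DESeq2 on all 72 libraries called 48, 20 of them among the 30. It gave an adjusted p to 9674 of the 17460 genes for this interaction, and genes without one count as not called. By edgeR the count was 16 without *slpif8a* 24WL replicate 3, 55 without WT 24WL replicate 3 and 48 without *slpif8a* 24FR replicate 1. Among the 30 genes, 12 had negative light values in both genotypes with the more negative one in WT, and 7 had positive values in both. Counted over all 30, 12 had light values short of 2-fold in WT as well as in *slpif8a*.

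The late anthocyanin genes made up the largest group. All 9 had a positive interaction value (median 1.61) and 6 were called, with 6 also by DESeq2. For *DFR* (Solyc02g085020) WT stood at 138, 177 and 251 CPM in 24WL and 15.7, 26.5 and 11.5 CPM in 24FR, a fall to 9.48% where *slpif8a* kept 26.8% (interaction 1.49 ± 0.28 (SE), adjusted p = 0.00656). For the anthocyanidin synthase match (Solyc08g080040) WT stood at 155, 173 and 197 CPM and 7.91, 18 and 5.54 CPM, 5.99% against 27.0% in *slpif8a* (interaction 2.16 ± 0.40 (SE), adjusted p = 0.0047). The acyltransferase gene (Solyc12g088170) stood in WT at 146, 167 and 233 CPM and 7.08, 12.7 and 5.17 CPM, 4.56% against 22.9% (interaction 2.32 ± 0.33 (SE), adjusted p = 4.03e-05). In 24WL no late gene separated the genotypes, and in 24FR all 3 *slpif8a* libraries were above all 3 WT libraries in 5 of the 9. The share of all tested genes that separate in this way was not computed. These libraries are also those that give the interaction. In the fit to the cotyledon libraries alone none of the 6 was called for the interaction. Adjusted p-values by edgeR were 0.457 for Solyc12g088170 and 0.956 for Solyc08g080040, and higher for the other genes of the 6.

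In the early flavonoid list 1 of 6 genes was called for the interaction (3 by DESeq2), and in the regulator list 1 of 4 (0 by DESeq2, which gave *bHLH150* no adjusted p). *CHS1* (Solyc09g091510) changed by -3.12 in WT (interaction 1.12 ± 0.26 (SE), adjusted p = 0.0418), *bHLH150* (Solyc09g065100) from 26.3, 29.9 and 55.4 CPM to 0.734, 3.14 and 1.05 CPM (interaction 1.94 ± 0.41 (SE), adjusted p = 0.0171), and a caffeoyl-CoA O-methyltransferase gene (Solyc09g082660), of a class that methylates phenolic rings, by -3.72 in WT and -1.80 in *slpif8a* (interaction 1.93 ± 0.29 (SE), adjusted p = 8.34e-05). The *CHS1* call was lost without any one of 8 of the 12 libraries compared, all but *slpif8a* 24FR replicate 3, WT 24WL replicates 1 and 2 and WT 24FR replicate 2 (adjusted p = 0.0513 to 0.171), and that of *bHLH150* without *slpif8a* 24FR replicate 1, WT 24WL replicate 3 or WT 24FR replicate 1 or 3 (adjusted p = 0.0794 to 0.103). In the fit to the cotyledon libraries alone neither gene was called, nor was the O-methyltransferase gene. There the adjusted p by edgeR was 0.457 for the O-methyltransferase gene, and higher for *CHS1* and *bHLH150*. In the fit to all 72 libraries, 17 of the 19 tested genes of the 3 pathway lists had a positive value and 8 were called. Values of the jasmonate and wound genes lay in the same direction, with 17 of 19 positive for the interaction (median 0.43), none with an unadjusted p under 0.05, and 18 of 19 higher in *slpif8a* than in WT in 24FR (median 0.60). They summed to 346 to 993 CPM in 24WL and 461 to 652 CPM in 24FR in WT, the latter below the 706 to 945 CPM of *slpif8a* in 24FR, and their part in the anthocyanin difference was not tested.

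**Figure D3:**
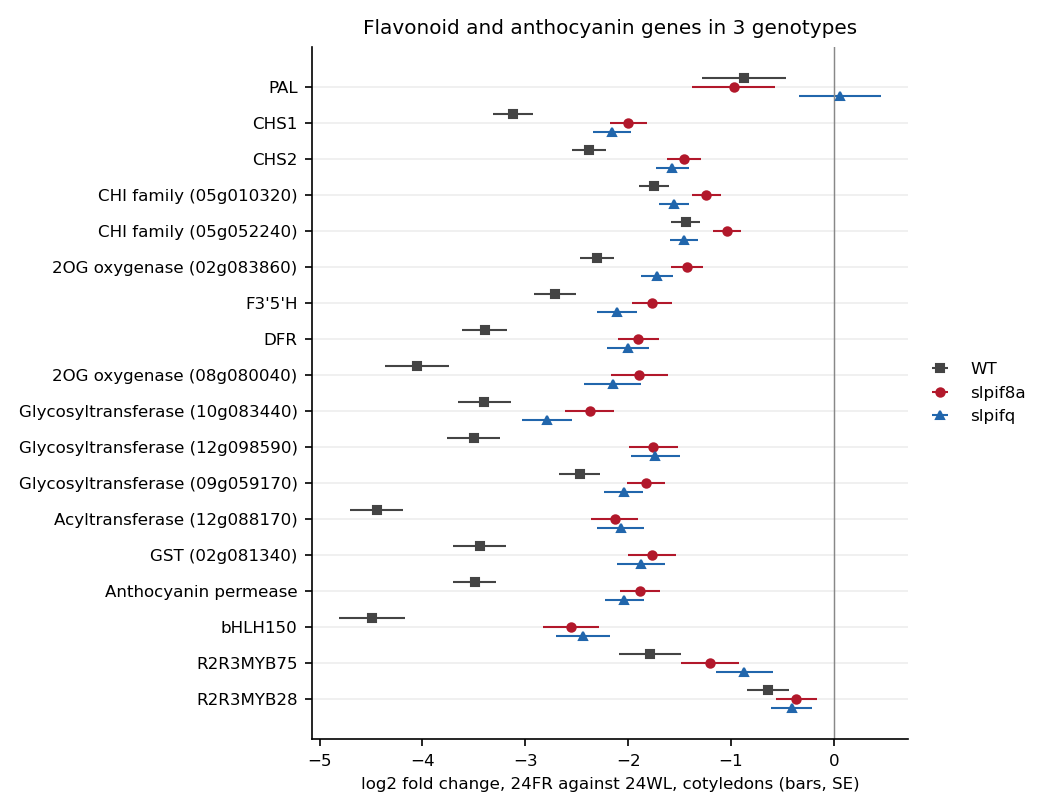
Light response (log2 fold change with its SE, 24FR over 24WL) of the genes of the flavonoid and anthocyanin lists in WT, *slpif8a* and *slpifq* cotyledons. For the 9 late genes the WT points lie between -2.47 and -4.45, those of *slpif8a* between -1.75 and -2.37 and those of *slpifq* between -1.73 and -2.79.

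The genes with a smaller rise in *slpif8a* included 3 regulators or wall genes. *SlPIF3* (Solyc01g102300) stood in WT at 4.44, 3.64 and 3.10 CPM in 24WL and 39.2, 32.5 and 27.9 CPM in 24FR, a log2 change of 3.17 against 1.26 (interaction -1.91 ± 0.21 (SE), adjusted p = 1.05e-07), with 0.0509 in the fit to the cotyledon libraries and no adjusted p from DESeq2. The BES1/BZR1 gene (Solyc07g062260) stood in WT at 5.47, 7.83 and 6.97 CPM and 64.7, 77.4 and 86.2 CPM (interaction -1.59 ± 0.31 (SE), adjusted p = 0.00803). *Expansin-B3* (Solyc10g008440) stood at 2.12, 2.41 and 2.06 CPM and 2.59, 2.38 and 3.33 CPM in *slpif8a*, and at 1.48, 1.49 and 2.94 CPM and 7.49, 6.70 and 7.33 CPM in WT (interaction -1.50 ± 0.31 (SE), adjusted p = 0.0115). In 24FR each *slpif8a* library was below each WT library in these 3 genes, while in 24WL the genotypes overlapped for the BES1/BZR1 gene and *Expansin-B3*, and *slpif8a* was slightly higher for *SlPIF3*. The carnitine transporter gene (Solyc07g063930) fell further in *slpif8a*, with WT at 7.62, 11.7 and 12 CPM and 4.61, 6.80 and 5.54 CPM (interaction -2.06 ± 0.42 (SE), adjusted p = 0.0119). The call was lost for the BES1/BZR1 gene without *slpif8a* 24WL replicate 3 (adjusted p = 0.0733), for *Expansin-B3* without *slpif8a* 24FR replicate 2 or WT 24WL replicate 1 or 2 (adjusted p = 0.0502 to 0.0636), and for the carnitine transporter gene without *slpif8a* 24FR replicate 2 or WT 24FR replicate 2 (adjusted p = 0.0525 to 0.0609). In the fit to the cotyledon libraries alone none of these genes was called for the interaction. There the adjusted p by edgeR was 0.457 for the carnitine transporter gene, and higher for the BES1/BZR1 gene and *Expansin-B3*.

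Auxin genes did not separate the genotypes in this test. For the interaction 0 of 14 auxin, 0 of 13 *Aux/IAA*, 0 of 22 *SAUR* and 0 of 5 *HD-Zip II* genes were called by edgeR, with 2, 4, 1 and 0 at an unadjusted p under 0.05. DESeq2 called none either, but it gave an adjusted p to only 9674 of the 17460 genes. How many genes of these lists had one was not counted. All 13 *Aux/IAA* genes had a positive value (median 0.72), and in 24WL 12 of the 13 were lower in *slpif8a* than in WT (median -0.35), a contrast that shares the 24WL libraries with the interaction. *IAA19* (Solyc03g120380), for example, changed by 2.002 ± 0.42 (SE), adjusted p = 0.000539 in *slpif8a* and by 0.67 ± 0.41 (SE), adjusted p = 0.329 in WT (interaction adjusted p = 0.518).

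Set directly against each other, the genotypes differed in 13 genes in 24WL (0.0745%), 5 higher (0.0286%) and 8 lower (0.0458%) in *slpif8a*, and in 62 genes in 24FR (0.355%), 38 higher (0.218%) and 24 lower (0.137%). With the cotyledon libraries alone these were 1 and 12 genes. Without *slpif8a* 24WL replicate 3 the first count was 8, and without *slpif8a* 24FR replicate 1 the second was 97. In 24FR *GA20ox2* (Solyc06g035530) stood at 15.2, 17.1 and 15.5 CPM in the mutant and 68.2, 62.8 and 45.5 CPM in WT (-1.88 ± 0.22 (SE), adjusted p = 7.84e-08), though the interaction was not called (-1.84 ± 0.53 (SE), adjusted p = 0.141). *SlPIF7b* (Solyc06g069600) stood at 11.5, 9.41 and 6.07 CPM in the mutant against 3.88, 1.75 and 1.42 CPM in WT (1.92 ± 0.38 (SE), adjusted p = 0.0024). The groups did not overlap in either gene, *GA20ox2* being lower and *SlPIF7b* higher in the mutant. *SAUR5* (Solyc01g110580) was lower in *slpif8a* in 24FR, by a log2 value of -1.15 (adjusted p = 0.00749). In the fit to the cotyledon libraries alone *SAUR5* was not called (adjusted p = 0.296 by edgeR).

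In *slpifq* cotyledons 386 genes were called (2.21%), 285 upregulated (1.63%) and 101 downregulated (0.578%). The lists shared 87 upregulated genes, 33.1% of those of *slpif8a* and 30.5% of those of *slpifq*, and 33 downregulated genes, 30% and 32.7%. The difference between the light responses of both mutants was called for 455 genes (2.61%), 162 with a higher (0.928%) and 293 with a lower value (1.68%) in *slpifq*. This count moved most with single libraries, from 149 without *slpif8a* 24FR replicate 1 to 856 without *slpif8a* 24WL replicate 1, and was 8 in the fit to the cotyledon libraries.

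*Aux/IAA* and other auxin genes were among those in which the mutants differed in the fit to all 72 libraries. Of 13 *Aux/IAA* genes 12 had a lower value in *slpifq* (median difference -1.34), 7 were called, and in 24FR the libraries of the mutants did not overlap in 12 of 13. The share of all tested genes without overlap between the mutants was not computed. *IAA17* (Solyc06g008590) in 24FR stood at 41.5, 35.8 and 35.2 CPM in the single mutant, and in the quadruple mutant at 10.5, 12.9 and 8.32 CPM (difference -2.16 ± 0.31 (SE), adjusted p = 1.17e-05), and *IAA29* (Solyc08g021820) at 38.3, 32 and 50.1 CPM and 10.2, 10.2 and 4.69 CPM (difference -2.24 ± 0.49 (SE), adjusted p = 0.00572). In 24FR both genes were higher in every *slpif8a* library than in any *slpifq* library. Of 22 *SAUR* genes 0 were called for this difference by edgeR (median -0.84). Of the auxin genes 6 of 14 were called lower in *slpifq*, with *SlPIN3* (Solyc04g007690) at 17.1, 16 and 10.2 CPM in 24FR (difference -1.74 ± 0.34 (SE), adjusted p = 0.00227) and the GH3 gene Solyc12g005310 at 4.08, 7.32 and 1.16 CPM (difference -3.69 ± 0.79 (SE), adjusted p = 0.00531). *DWARF* (Solyc02g089160, -1.83), the *BAS1* match (Solyc12g006860, -3.001), *GA20ox2* (Solyc06g035530, -2.43), *SlATHB2* (Solyc08g078300, -2.14) and *PHYB2* (Solyc05g053410, -0.99) were also called lower, while the gibberellin 2-oxidase gene Solyc10g007570 (1.83) was called higher. The edgeR fit to the cotyledon libraries alone called 8 genes in all for this difference, and *DWARF* was not among them (adjusted p = 0.109). Among the 8 were the protein kinase gene Solyc01g080880 (adjusted p = 0.02) and the DUF642 gene Solyc01g087540 (adjusted p = 0.0449). Most of the calls given in this paragraph were therefore not made in that fit. For the 9 late anthocyanin genes the median was -2.04 in *slpifq* and -1.88 in *slpif8a*, and the smallest adjusted p of the difference was 0.494 (Solyc11g066580).

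**Figure D4:**
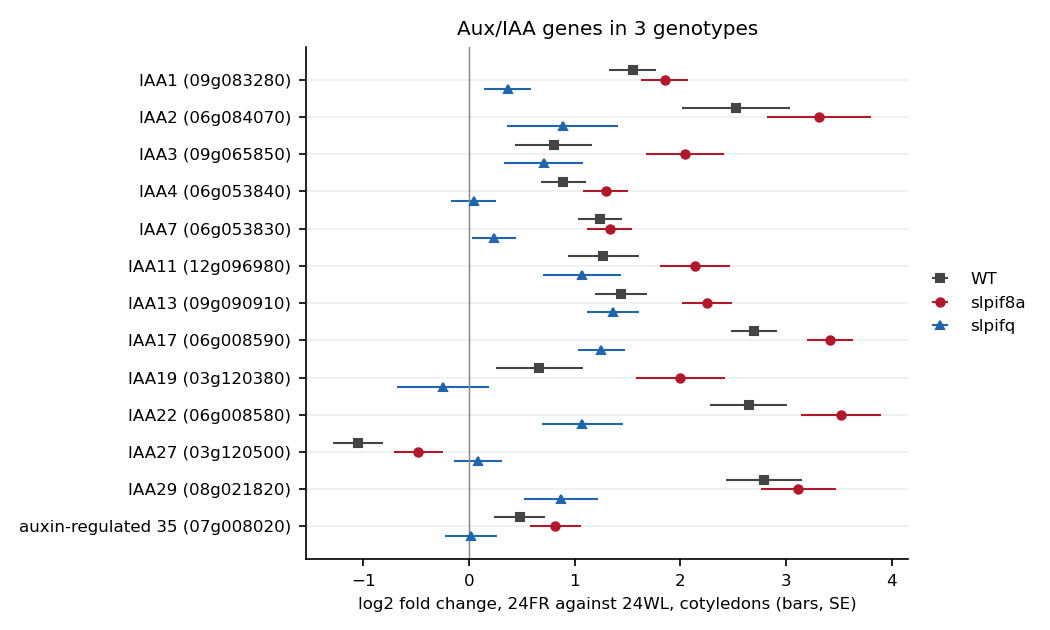
Light response (log2 fold change with its SE, 24FR over 24WL) of 13 *Aux/IAA* genes in WT, *slpif8a* and *slpifq* cotyledons. The *slpif8a* points lie above those of WT for every gene, and the *slpifq* points lie below those of *slpif8a* for 12 of 13.

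In the first leaf of *slpif8a* 153 genes were called (0.876%), 117 upregulated (0.67%) and 36 downregulated (0.206%). Of these, 88 upregulated and 31 downregulated genes were also called in the cotyledons, 75.2% and 86.1% of the leaf lists, and 33.5% and 28.2% of the cotyledon lists. The organs differed in 113 genes (0.647%), 106 with a higher (0.607%) and 7 with a lower value (0.0401%) in the cotyledons, and in 58 to 143 genes when 1 library was left out. By the study's methods the organs may come from the same seedlings, and the test had no term for that. *PHYB2* (Solyc05g053410) changed by 2.43 in the leaf against 3.75 in the cotyledons (difference adjusted p = 0.00189), and *SlPIN1* (Solyc03g118740) by 0.70 against 1.78 (difference adjusted p = 0.0169). The uncharacterized gene with the largest rise, Solyc04g010285, changed by 3.27 in the leaf against 8.61 (difference adjusted p = 7.65e-08). Pathway genes fell in the leaf too, 5 of 6 early and 9 of 9 late, and 10 of 13 *Aux/IAA* genes rose. In the hypocotyl 389 genes were called (2.23%), 205 up (1.17%) and 184 down (1.05%), of which 116 and 47 were shared with the cotyledons and 2 went in opposite directions. In the epicotyl 367 were called (2.1%), 258 up (1.48%) and 109 down (0.624%), of which 87 and 37 were shared and 1 went in opposite directions.

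WT cotyledons at 3 h and 24 h place the 6 h values in time, in libraries that share none with *slpif8a* and were normalized in another table. At 3 h 224 of 17469 genes were called (1.28%), 143 up (0.819%) and 81 down (0.464%), and at 24 h 448 (2.56%), 277 up (1.59%) and 171 down (0.979%). The lists at 3 h and 24 h shared 115 and 118 upregulated genes and 38 and 39 downregulated genes with *slpif8a* at 6 h. For the late anthocyanin genes the median in WT was -1.30 at 3 h, -3.44 at 6 h and -6.83 at 24 h, so that the 6 h value in *slpif8a*, -1.88, lay between those of WT at 3 h and 6 h. The 3 times also differ in time of day, which cannot be told apart from the duration of far-red. The series holds no mutant libraries of 3 h or 24 h.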

How the data were processed

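The members, lists and tests were chosen with earlier results of these data known. The authors sequenced stranded TruSeq polyA libraries (single-end, 2 runs merged), aligned the reads to the SL4.0 genome with STAR (v2.7.9a), counted them with HTSeq (v0.13.5) on the reverse strand in intersection-strict mode and deposited raw counts per gene. They also deposited a table of normalized signal values, CPM over TMM library sizes from edgeR (v3.40.2), used only for an alternative. The authors' own fold changes were not used. All results were computed from the counts of the 72 libraries of 3 genotypes and 4 organs. Of 34075 genes, 17460 were tested, those over 5 CPM in 3 libraries or more. The 5 entries without a gene name, 13.9 to 15.4% of the reads of the 6 libraries, were left out.

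R 4.3.3 was used with edgeR 4.0.16 (TMM, quasi-likelihood test, Benjamini-Hochberg, with 1 coefficient per combination of genotype, organ and light), limma 3.58.1 and DESeq2 1.42.0. WT at 3 h and 24 h was fitted in its own table. Calls for light or genotype needed an adjusted p under 0.05 and a log2 change beyond 1 in either direction, and calls for interactions the p alone. The edgeR test for light in *slpif8a* cotyledons was tested on simulated counts. Named genes were the 10 largest changes per direction with replicates that did not overlap, called list members (up to 4 per list where there were more), genes the study names, the 10 lowest p-values of the interaction with WT, and the 5 lowest p-values per direction for light. Other members given are outside this rule and were chosen after their values were seen. Names for 3329 identifiers came from the study's supplement, and 4 of 18 light signalling genes without one were dropped. Ratios of few counts carry exact 95% counting intervals. Alternatives were the likelihood ratio test, DESeq2, its size factors, other filters, fits to the cotyledon or compared libraries alone, limma on log2 of that CPM plus 1 or 0.1, a replicate term, and each library left out. A single result within the gene lists is not reported here.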

Additional observations from a re-analysis of the deposited data

Results flagged for a closer look

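The light response of *slpif8a* cotyledons differed from that of WT cotyledons in 30 genes by the interaction term, from that of *slpifq* cotyledons in 455 genes, and from that of the *slpif8a* first leaf in 113 genes, all by edgeR's quasi-likelihood test. The first and second counts are those that fell to 0 and 8 when the cotyledon libraries were fitted alone.

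Lower values in *slpif8a* than in WT were those of *SlPIF3* (Solyc01g102300, difference of -1.91 on the log2 scale), the BES1/BZR1 gene (Solyc07g062260, -1.59), the carnitine transporter gene (Solyc07g063930, -2.06) and *Expansin-B3* (Solyc10g008440, -1.50). Higher values were those of the late pathway genes *DFR* (Solyc02g085020, 1.49), glutathione S-transferase (Solyc02g081340, 1.68), anthocyanin permease (Solyc03g025190, 1.61), the anthocyanidin synthase match (Solyc08g080040, 2.16), acyltransferase (Solyc12g088170, 2.32) and glycosyltransferase (Solyc12g098590, 1.74), and of *CHS1* (Solyc09g091510, 1.12), *bHLH150* (Solyc09g065100, 1.94) and the caffeoyl-CoA O-methyltransferase gene (Solyc09g082660, 1.93). An emopamil-binding protein gene (Solyc06g082980) had a difference of 1.31, with 103, 154 and 84.6 CPM in 24WL and 77.8, 119.9 and 83 CPM in 24FR in *slpif8a* and 103, 119 and 186 CPM and 43.9, 47.8 and 43.2 CPM in WT. Solyc11g005440, without a description, had a difference of 1.24, rising by 0.75 in *slpif8a* against -0.50 in WT.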

How the results depend on the processing

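For the light response of *slpif8a* cotyledons, fits to the 18 cotyledon libraries or to the 6 libraries alone called 213 and 200 genes in place of 373, of which 212 and 193 were among the 373. The likelihood ratio test, DESeq2, its size factors, other filters and limma called 278 to 477, and fits without 1 library 341 to 442. The interaction with WT gave 30 genes, 0 in the fit to 18 libraries, 0 in the fit to 12 libraries, 48 with DESeq2, and 16 to 55 without 1 library. In the fit to the 18 cotyledon libraries WT gave 279 genes in place of 484, *slpifq* 133 in place of 386, the difference between the mutants 8 in place of 455, and the genotypes differed in 1 gene in 24WL and 12 in 24FR in place of 13 and 62. Without 1 library these counts were 436 to 586 for WT, 193 to 664 for *slpifq*, 149 to 856 for the difference between the mutants, 8 to 18 in 24WL, 43 to 97 in 24FR, 118 to 156 for the first leaf and 58 to 143 for the organs. The causes were not tested. Libraries that moved a count by over 1.5 times were *slpif8a* 24WL replicates 1, 2 and 3, *slpif8a* 24FR replicates 1 and 2, WT 24WL replicate 3, *slpifq* 24WL replicate 3, *slpifq* 24FR replicates 1 and 3, and, in the first leaf, 24WL replicate 1 and 24FR replicates 2 and 3. For named genes, 1389 of the alternative values for light kept direction and call, 26 lost and 10 gained the call, and a B-type cyclin gene (Solyc10g078330), which was not called, ranged from -0.084, without *slpif8a* 24FR replicate 2, to 0.63 without 1 library. For the interaction 418 kept the call and 167 lost it.

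Replicates with the same number in both lights did not deviate together throughout, with correlations of 0.305, -0.00798 and 0.311 in *slpif8a*, so that the numbers were not taken as pairs. With a replicate block the light response gave 372 genes and the interaction with WT 38, and *XTH9* (Solyc12g011030) was called at 1.92. The depth limits genes near the floor of 0.103 to 0.152 CPM, where ratios are given with counting intervals.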

Other observations

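Some genes that belong to no list above, chosen after their values were seen, differed between *slpif8a* and WT cotyledons in 24FR. The Delta(24)-sterol reductase gene (Solyc02g069490) stood at 306, 475 and 178 CPM in the mutant against 137, 124 and 94.3 CPM in WT (log2 fold change 1.43 ± 0.35 (SE), adjusted p = 0.0155), and a 7-dehydrocholesterol reductase gene (Solyc06g074090) had a difference of 1.18 ± 0.26 (SE), adjusted p = 0.0075. Neither was called in the fit to the cotyledon libraries alone, with adjusted p-values of 0.305 and 0.249 from edgeR. In the same direction were a 2-oxoglutarate dioxygenase gene (Solyc07g043420), with 1156, 1947 and 1069.5 CPM against 696, 839 and 551 CPM (log2 fold change 1.000 ± 0.23 (SE), adjusted p = 0.00972), and its neighbour by identifier, described as a cellulose synthase (Solyc07g043390, 1.13 ± 0.28 (SE), adjusted p = 0.0187). Replicates of the 2 genotypes did not overlap in Solyc02g069490 and Solyc07g043420.

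A few genes were near silent in *slpif8a* in both lights while WT expressed them. Solyc05g021245 stood at 2.02, 1.07 and 1.10 CPM in 24WL and 1.14, 1.82 and 0.549 CPM in 24FR in *slpif8a*, against 96.2, 69 and 36.4 CPM and 62.2, 44.4 and 32.2 CPM in WT (-5.34 ± 0.57 (SE), adjusted p = 1.57e-08 in 24FR). Solyc03g006720 and an F-box gene (Solyc09g091615) had differences of -5.98 and -5.61 in 24FR, and Solyc07g052770 was higher in *slpif8a*, by 2.96. A thaumatin-like pathogenesis gene (Solyc08g080660) was high in 1 *slpif8a* library, at 5.01, 6.98 and 54 CPM in 24FR.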
